A study of Mus musculus with 4 samples.

Results

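MHC class I presentation was followed in early T lineage progenitors (ETP) through 10 genes of the 23361 in the deposited table. They are the classical heavy chains H2-K1 and H2-D1, the Q and T region heavy chains H2-Q6, H2-Q7, H2-Q9 and H2-T23, the light chain B2m, and the peptide loading genes Tap1, Tap2 and Tapbp. The genes were chosen by name with the difference between old and young ETP in these same libraries already known, so that difference is described below and is not tested. RNA was sequenced from ETP of female C57BL6 mice of 4 to 6 weeks (young, 2 libraries) and of 72 weeks (old, 2 libraries), and the labels name no transgene, deletion or treatment in either group. ETP, the most immature progenitors of the thymus, were sorted as lineage-negative, CD44+ CD25- CD117+ cells and lysed directly. The comparison addresses how gene expression in ETP differs between young and old mice.

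Class I molecules carry peptides from inside the cell to its surface, where CD8 T cells and NK cells read them. A heavy chain, which forms the peptide groove, folds with the invariant light chain, beta-2 microglobulin. TAP, made of Tap1 and Tap2, pumps peptides from the cytosol into the endoplasmic reticulum, and tapasin, from Tapbp, bridges TAP and empty class I molecules. Classical heavy chains are present on nearly all nucleated cells, whereas Q and T region heavy chains are non-classical, less polymorphic and more restricted. Interferons and NF-kB raise many of these genes through short promoter elements, and Nlrc5 is the main transcriptional activator of class I.

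Of the members found in the annotation, B2m lies on chromosome 2 and the others in the MHC on chromosome 17. In the GRCm38 build with GENCODE M21, Tapbp spans chr17:33915899-33929292 and H2-K1 chr17:33996017-34000347. Tap1 spans chr17:34187553-34197225 and Tap2 chr17:34203527-34216321, with the immunoproteasome gene Psmb8 between them. H2-D1 spans chr17:35262730-35267499, and the neighbours H2-Q6 and H2-Q7 span chr17:35424850-35430055 and chr17:35439155-35443773. H2-T23 spans chr17:36029773-36032855, and B2m spans chr2:122147686-122153083. H2-K1 and H2-T23 are on the minus strand and the others named here on the plus strand. H2-Q9 was not matched in this annotation.

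Promoter sequence is shown for the heavy chains and the light chain, which include the members with the largest and the smallest differences between ages. RefSeq promoters (GRCm38.p6, 250 bases before to 50 after each start) were matched for 8 of the 10 members, and not for H2-Q9 and Tap2. Stretches of 140 bases are printed 5′ to 3′ in gene orientation. They are chr17:34000329-34000468 (minus strand) for H2-K1, chr17:35262913-35263052 (plus) for H2-D1, chr17:35424667-35424806 (plus) for H2-Q6, chr17:35439012-35439151 (plus) for H2-Q7, chr17:36032702-36032841 (minus) for H2-T23 and chr2:122147547-122147686 (plus) for B2m. The H2-D1 and H2-T23 stretches and the 3′ end of the H2-K1 stretch lie within the GENCODE gene spans, since the RefSeq starts differ from them. Capitals mark matches, on either strand, to an NF-kB element (GGGGATTCC), an interferon response element (GAANNGAAA or GAAANNGAA), a CRE core (TGACG) or a CCAAT box (CCAAT).
H2-K1: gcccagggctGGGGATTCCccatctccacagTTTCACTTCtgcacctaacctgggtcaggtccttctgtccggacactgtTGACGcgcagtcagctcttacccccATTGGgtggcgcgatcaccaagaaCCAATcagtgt
H2-D1: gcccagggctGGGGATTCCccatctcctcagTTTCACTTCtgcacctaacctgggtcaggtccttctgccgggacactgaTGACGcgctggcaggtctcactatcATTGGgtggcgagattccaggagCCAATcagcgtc
H2-Q6: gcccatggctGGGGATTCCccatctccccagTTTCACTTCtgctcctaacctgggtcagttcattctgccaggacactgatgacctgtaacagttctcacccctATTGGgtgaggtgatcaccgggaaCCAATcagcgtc
H2-Q7: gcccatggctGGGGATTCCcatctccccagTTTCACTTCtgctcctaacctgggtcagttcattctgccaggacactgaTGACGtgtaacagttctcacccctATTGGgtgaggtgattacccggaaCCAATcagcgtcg
H2-T23: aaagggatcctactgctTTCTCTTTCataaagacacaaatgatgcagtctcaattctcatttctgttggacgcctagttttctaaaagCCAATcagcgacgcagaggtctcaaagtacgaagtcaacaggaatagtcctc
B2m: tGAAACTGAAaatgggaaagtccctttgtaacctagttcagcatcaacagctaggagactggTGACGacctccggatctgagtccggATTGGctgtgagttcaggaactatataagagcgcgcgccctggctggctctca

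The NF-kB element was found in 4 of the 8 promoters, those of H2-K1, H2-D1, H2-Q6 and H2-Q7, and in 0.250% of 32851 RefSeq promoters. An interferon response element was found in 6 of the 8, all but Tap1 and Tapbp, and in 14.8% of all promoters. CRE cores were found in 5 of the 8 (H2-K1, H2-D1, H2-Q7, B2m and Tap1) and in 20.8% of all, and CCAAT boxes in 8 of the 8 and in 37.4% of all. In the printed stretches, matches to different elements did not overlap. The H2-Q6 and H2-Q7 stretches were 96.5% identical, and H2-K1 and H2-D1 were 87.2% identical. Between a classical and a Q region stretch the identity was 82.4% to 83.8%. The 4 matches to the NF-kB element thus lie in related sequence and are not independent of each other. Whether these letters bear on the difference between ages was not tested. A match describes letters in this window and is neither a bound site nor a cause, and no match says nothing about the factor.

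Depth was 16658865 and 6414917 fragments for young replicates 1 and 2, and 11816480 and 4839341 for the old replicates. A count of 0 therefore allows 0.176 to 0.654 normalized CPM, by counting error only. The genes of the ETP gate and lineage list summed to 3832 and 4320 CPM in young and 3685 and 3708 CPM in old, with Kit, the CD117 of the gate, at 764 to 1096 CPM in the 4 libraries. Notch1, the most abundant of that list, stood at 1273 and 1204 CPM in young and 963 and 577 CPM in old, lower in both old libraries (log2 fold change -0.69, SE 0.35, not called). Malat1, a nuclear RNA, made up 0.475% and 0.895% of young fragments and 0.983% and 1.60% of old ones, and Lars2 0.128% and 0.246% against 0.197% and 0.374%. Malat1 was thus higher in both old libraries, and its part in the results was not tested. The members together took 0.385% and 0.399% of the fragments of the young libraries and 0.623% and 0.628% of those of the old. In bulk RNA, fewer cells of a type and less RNA per cell cannot be told apart. Nothing in the sources ties the replicates to separate mice, and p-values therefore reflect only the spread between these libraries.

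Levels below are TMM-normalized CPM (counts over library size, scaled between libraries), with replicate 1 before replicate 2, and fold changes are log2 old minus young from edgeR with their standard error (SE). H2-K1, a classical heavy chain, stood at 970.1 and 693.4 CPM in young and 1759 and 1304 CPM in old ETP. Both old libraries lay above both young ones, with means of 832 ± 196 and 1532 ± 322 CPM (SD, n = 2 each) and a log2 fold change of 0.88 (SE 0.34). H2-D1, the other classical heavy chain, stood at 468.5 and 299.6 CPM in young and 1052 and 755 CPM in old. Its old libraries were again higher without overlap, at means of 384 ± 119 and 904 ± 210 CPM (SD, n = 2 each) and a log2 fold change of 1.23 (SE 0.36). In either age replicate 1 was the higher for both genes, by 1.40 and 1.35 times for H2-K1 and by 1.56 and 1.39 times for H2-D1.

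H2-Q7, which encodes a form of the Qa-2 antigen, stood at 12.8 and 20.8 CPM in young and 170.8 and 117.9 CPM in old ETP. The lowest old library was 5.68 times the highest young one, the means were 16.8 ± 5.66 and 144 ± 37.4 CPM (SD, n = 2 each), and the log2 fold change was 3.11 (SE 0.39). H2-Q9, a near copy that also encodes Qa-2, stood at 5.14 and 6.13 CPM in young and 52.8 and 44.6 CPM in old, a log2 fold change of 3.12 (SE 0.34). The lowest old level of H2-Q9 was 7.27 times its highest young one. H2-Q6, their neighbour, stood at 1.35 and 2.08 CPM in young and 15.5 and 18.7 CPM in old, again without overlap, with a log2 fold change of 3.35 (SE 0.46). Behind these levels were 23 and 13 young fragments against 186 and 86.0 old ones for H2-Q6, 218 and 129.7 against 2055 and 541 for H2-Q7, and 87.8 and 38.3 against 635 and 205 for H2-Q9. The filter for testing asked for an FPKM of 1 or more in 2 libraries, which H2-Q6 reached only in the old ones. The ratios of old to young means were 9.98 for H2-Q6, 8.61 for H2-Q7 and 8.64 for H2-Q9, against 1.84 for H2-K1 and 2.35 for H2-D1.

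The Q genes share sequence, and their fragment values were fractions in 4 of 4 libraries, so the split among them is uncertain. Of the 100-base windows in protein-coding transcripts of H2-Q7, 17.2% also occur in transcripts of other genes, H2-Q6 and H2-Q5 first. The share was 10.8% for H2-Q6, 4.09% for H2-D1, 7.28% for H2-T23, 0.0972% for Tapbp, and 0% for H2-K1, B2m, Tap1 and Tap2. H2-Q9 was not matched in the annotation used for this search. Windows shared with it could not be counted, and the shares of the other Q genes may be too low. H2-Q8, named after its values were seen, had 158 fragments in old replicate 1 and under 1 in each other library, and was below the filter. Its fragment values were fractions too, so the split between it and the Q members is also uncertain. Summed over H2-Q6, H2-Q7 and H2-Q9, the levels were 19.3 and 29.0 CPM in young and 239 and 181 CPM in old ETP. This sum does not depend on the split among the summed genes, but it does depend on any split with H2-Q8, which it leaves out. The sum was 9.91 and 7.51 times the young mean in the old libraries, while H2-K1 and H2-D1 together were 2.31 and 1.69 times theirs.

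H2-T23 encodes Qa-1, which presents a leader peptide of classical class I to the NK cell receptors CD94/NKG2A. It stood at 111.2 and 74.5 CPM in young and 151.6 and 147.9 CPM in old, without overlap, with a log2 fold change of 0.69 (SE 0.30). The ratio of its means was 1.61, below that of both classical genes, so the non-classical members did not form a single group. Over H2-Q6, H2-Q7, H2-Q9 and H2-T23 the median log2 fold change exceeded that of H2-K1 and H2-D1 by 2.06, a value carried by the Q genes. With the Q genes summed to a single feature, the difference was 0.85, and as a log2 ratio of summed FPKM it was 0.69. No test is given for it, since the members were chosen on this contrast.

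**Figure D1:**
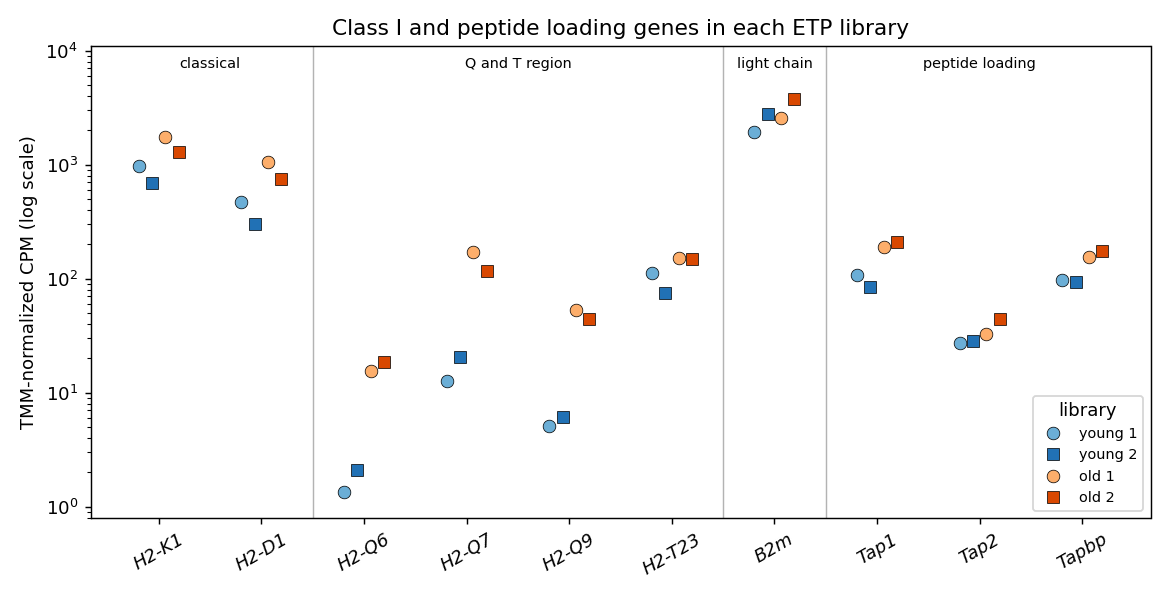
TMM-normalized CPM (log scale) of the 10 members in each library, circles for replicate 1 and squares for replicate 2, blue for young and orange for old. H2-Q6, H2-Q7 and H2-Q9 show the widest gap between ages, and only B2m overlaps, with old replicate 1 at 2543 CPM below young replicate 2 at 2793 CPM.

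B2m, the class I light chain, stood at 1953 and 2793 CPM in young and 2543 and 3805 CPM in old ETP. The ages overlapped, since old replicate 1 lay below young replicate 2, and the log2 fold change of 0.42 (SE 0.39) was close to its error. The replicates differed more than the ages here, with replicate 1 at 0.699 times replicate 2 in young and 0.668 times in old, while the ratio of the means of old to young was 1.34. Without old replicate 2 the estimate fell to 0.08.

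Tap1, a subunit of the peptide transporter, stood at 107 and 84.4 CPM in young and 189.6 and 209.6 CPM in old ETP. Both old libraries were higher, with means of 95.7 ± 15.9 and 199.6 ± 14.1 CPM (SD, n = 2 each) and a log2 fold change of 1.06 (SE 0.27). Tapbp stood at 96.6 and 94.5 CPM in young and 156 and 176 CPM in old, a log2 fold change of 0.80 (SE 0.25) with no overlap. Tap2, the partner of Tap1 in the transporter, stood at 27.1 and 28.2 CPM in young and 32.8 and 44.7 CPM in old. Its libraries did not overlap either, but its log2 fold change of 0.48 (SE 0.31) was less than that of Tap1. The median over Tap1, Tap2 and Tapbp was 0.80.

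The spread of the estimates with a library left out was compared across members. H2-Q6, H2-Q7 and H2-Q9 kept log2 fold changes of at least 2.79, and H2-K1, H2-D1, Tap1 and Tapbp of at least 0.66. Lower ends of 0.43 for H2-T23, 0.22 for Tap2 and 0.08 for B2m were found, the first without young replicate 2 and the others without old replicate 2. Every member had a higher estimate in old in each of these fits. With the authors' own scaling factors, under which the median of all genes moved to -0.32, the estimates were 0.33 for H2-T23, 0.15 for Tap2 and 0.13 for B2m, still above that median.

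**Figure D2:**
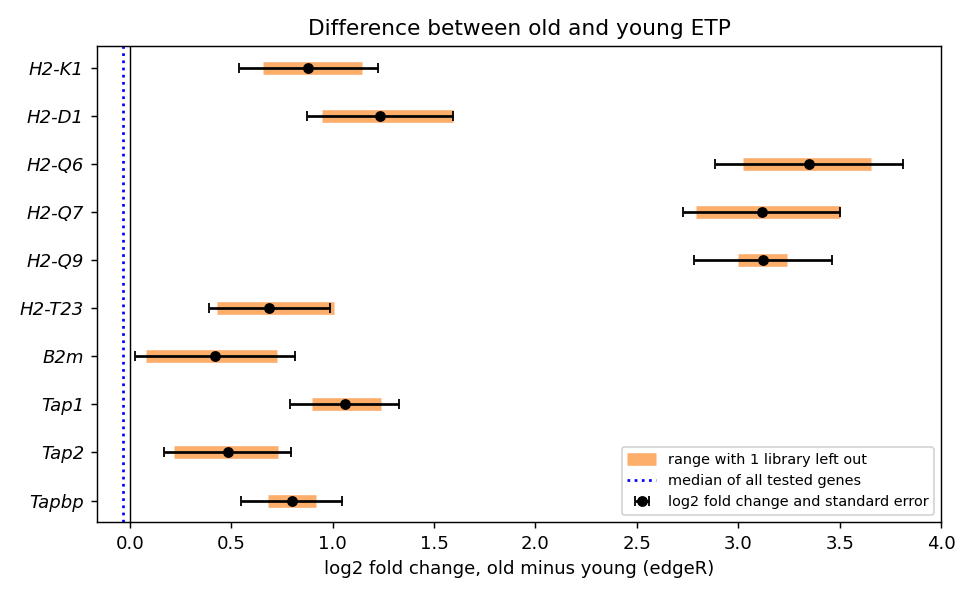
Log2 fold change of old minus young for the members, with points and black bars for the edgeR estimate and its standard error, orange bands for the range with 1 library left out, and a dotted line for the median of all tested genes. The Q genes lie between 2.79 and 3.65 over these fits, and the bands of Tap2 and B2m come nearest to 0.

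As normalized CPM, both old libraries lay above both young ones for 9 of the 10 members, all but B2m, beside 16.1% of the 10080 tested genes. The edgeR test, adjusted over all tested genes, called 0 of the 10 members and 0% of all genes as higher in old. At an unadjusted p under 0.05, edgeR had 7 of the 10 members and 561 of all genes, 469 of them higher in old. DESeq2 called 3 members, H2-Q6, H2-Q7 and H2-Q9, beside 2.08% of all genes higher in old. The median log2 fold change was 0.97 over the members and -0.03 over all tested genes. These counts describe a choice made on this contrast, and nothing is read from them.

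Levels of different genes were compared on a per-length scale, FPKM brought to the same sum in every library, called rescaled FPKM here. On this scale B2m was the most abundant member, at 5325 and 9070 in young against 6675 and 11327 in old ETP, followed in each library by H2-K1 and H2-D1. H2-K1 had 1159 and 1021 in young and 2044 and 1766 in old, and H2-D1 had 526 and 415 against 1149 and 963. In young ETP H2-T23 came next, at 174 and 142, followed by Tapbp and Tap1, whose levels overlapped at 64.6 to 78.8. H2-Q7 and Tap2 also overlapped, at 23.8 and 47.2 against 20.2 and 26.2, and H2-Q9 and H2-Q6 closed the young order at 6.74 and 9.89 and at 3.06 and 5.69.

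In old ETP the order of the lower members was different. H2-Q7, at 310.8 and 245 rescaled FPKM, now overlapped with H2-T23, at 229.6 and 259, and both lay above Tap1 (115 and 149) and Tapbp (102 and 135), which overlapped. H2-Q9 followed at 67.3 and 66.1, and H2-Q6, at 33.9 and 47.0, overlapped with Tap2, at 23.8 and 38.2. Q genes thus stood at or above the level of Tap2 in old ETP, where H2-Q9 and H2-Q6 had stood below it in young. Unlike its CPM, the rescaled FPKM of Tap2 overlapped between ages, with old replicate 1 at 23.8 below young replicate 2 at 26.2.

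The make-up of the class I transcripts was then described in each library. H2-Q6, H2-Q7 and H2-Q9 together amounted to 1.99% and 4.37% of H2-K1 plus H2-D1 in young and to 12.9% and 13.1% in old ETP, as rescaled FPKM. H2-T23 amounted to 10.3% and 9.89% of the same sum in young and 7.19% and 9.50% in old. The Q share was therefore higher in both old libraries, and the H2-T23 share was lower. H2-D1 amounted to 45.4% and 40.7% of H2-K1 in young and 56.2% and 54.5% in old, without overlap. Within the Q genes, H2-Q7 held 70.8% and 75.2% of the sum in young and 75.4% and 68.5% in old, so the ages overlapped there. B2m was 2.81 and 5.53 times the sum of the 6 heavy chains in young and 1.74 and 3.38 times in old, with overlap between ages. Tap1 was 3.28 and 2.49 times Tap2 in young and 4.82 and 3.91 times in old.

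**Figure D3:**
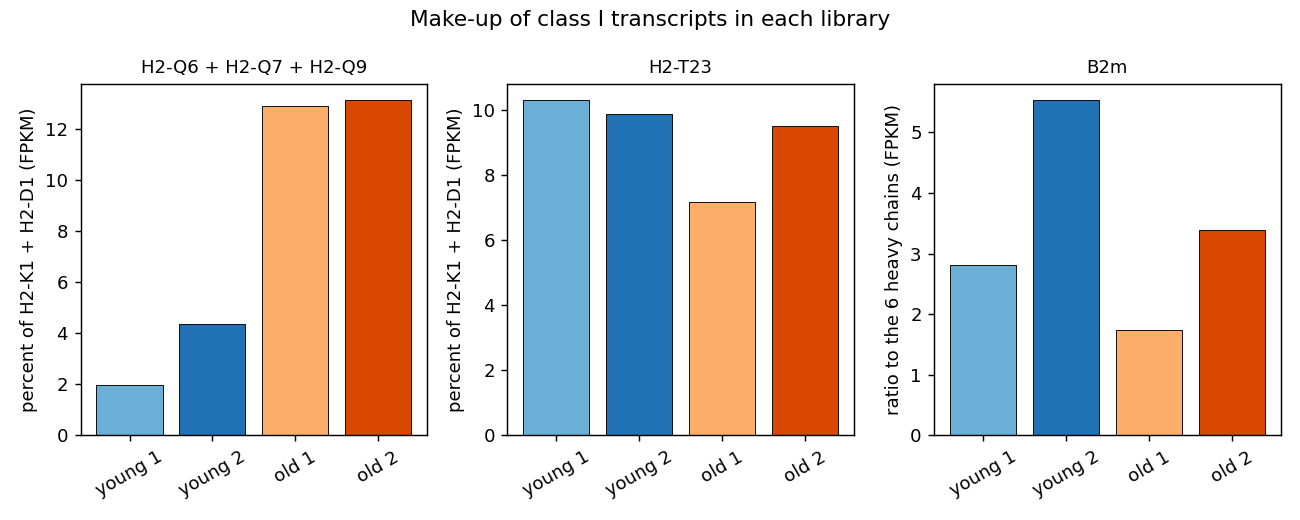
Summed FPKM of H2-Q6, H2-Q7 and H2-Q9 and FPKM of H2-T23, each as a percent of H2-K1 plus H2-D1, and FPKM of B2m as a ratio to the 6 heavy chains, with 1 bar per library. The Q share is 12.9% and 13.1% in old against 1.99% and 4.37% in young, while the other 2 measures are not higher in old.

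Beside the members, 26 other class I and class I-like genes were followed, of which 12 were tested and 6 were at 0 in every library. Estimates were higher in old for 10 of the 12 and lower for 2, with a median log2 fold change of 1.00. In the same fit 4699 of all 10080 tested genes had a higher estimate in old, to be set beside the counts of each list below. None passed the edgeR threshold although 8 were at an unadjusted p under 0.05, whereas DESeq2 called H2-Q5, Fcgrt and Hfe, the last 2 named here for those calls. Fcgrt, like H2-Q6, passed the filter only through the old libraries. H2-Q5, which lies between H2-D1 and H2-Q6 and is annotated as a polymorphic pseudogene, stood at 2.75 and 5.77 CPM in young and 41.0 and 36.2 CPM in old (log2 fold change 3.22, SE 0.48). H2-Q4, a Q gene next to it at chr17:35379617-35385290, stood at 19.2 and 24.7 CPM in young and 46.1 and 46.6 CPM in old (log2 fold change 1.08, SE 0.30). H2-T9, of the T region, stood at 26.1 and 20.7 CPM against 37.1 and 50.3 CPM. Both old libraries were above both young ones for these 3 genes, and H2-Q4 differed by less than the Q members did. Mr1, which presents vitamin B metabolites, had the lowest estimate, with 11.5 and 25.3 CPM in young and 7.90 and 13.5 CPM in old, overlapping. Cd1d1, which presents lipids, had an estimate of -0.20.

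Among the partners of the loading complex and of peptide trimming, 14 of 14 genes were tested. 9 estimates were higher and 5 lower in old, and the median was 0.06. Neither edgeR nor DESeq2 called any of them, and 0 had an unadjusted p under 0.05 in edgeR. Pdia3, which encodes the disulfide isomerase ERp57 of the complex, had an estimate of 0.57 (SE 0.33) and calreticulin, Calr, one of 0.60 (SE 0.28). Calnexin (Canx) had -0.06, the tapasin relative Tapbpl 0.01 and the trimming peptidase Erap1 -0.37. The extremes of this list were the chaperone Hspa5 at 0.78 (SE 0.40) and the peptidase Tpp2 at -0.49 (SE 0.36).

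The immunoproteasome, which cuts proteins into peptides suited to class I, was tested in 6 of 6 genes, 5 of them with higher estimates and a median of 0.36. Psmb9 stood at 145 and 102 CPM in young and 220 and 288 CPM in old, with a log2 fold change of 1.04 (SE 0.31). The spans of Psmb9 (chr17:34181987-34187764, minus strand) and Tap1 overlap at their 5′ ends, and no source states whether the counting used strand. The old libraries of Psmb9 lay above the young ones, as did those of Psmb8, at 231 and 203 CPM against 280 and 318 CPM. Psmb10 did not follow, at 57.2 and 43.4 CPM in young and 51.8 and 47.1 CPM in old. Psme1, a subunit of the PA28 activator and the most abundant of the list, had an estimate of 0.40 (SE 0.27). The median was 0.20 without young replicate 2 and 0.57 without young replicate 1. No gene of this list was called by edgeR or DESeq2, and 1, Psmb9, had an unadjusted p under 0.05 in edgeR.

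Of 15 transcription regulators of class I, 15 were tested, with 9 higher and 6 lower estimates, a median of 0.08 and 2 genes, Nlrc5 and Relb, at an unadjusted p under 0.05 in edgeR. Nlrc5, the class I activator, stood at 62.0 and 66.8 CPM in young and 142 and 204 CPM in old ETP. Its old libraries lay well above the young ones, with a log2 fold change of 1.43 (SE 0.29), no call by edgeR and a DESeq2 adjusted p of 0.0107. Irf1, a factor of interferon response elements, did not separate the ages, at 152 and 90.8 CPM in young and 146 and 97.4 CPM in old. Relb, an NF-kB subunit, had the highest estimate of the list, with 7.78 and 3.04 CPM against 20.2 and 12.2 CPM, and Rfxank, of the RFX complex, the lowest, at -0.24 (SE 0.38). Nfya and Creb1, which bind CCAAT and CRE letters, had estimates of -0.05 and -0.10.

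For the interferon and TNF receptors and their kinases, 8 of 9 estimates were higher in old with a median of 0.39 and no call by edgeR or DESeq2 (2 at an unadjusted p under 0.05 in edgeR), from Jak1 at -0.13 to Jak2 at 1.16 (SE 0.48). Among 26 interferon-stimulated genes, 22 estimates were higher with a median of 0.46, but without old replicate 2 only 12 were and the median was -0.08. edgeR called none of them and had 6 at an unadjusted p under 0.05, and DESeq2 called 2, Zbp1 and, named here for its call, Mx1. The most abundant of them, Oasl2, Ifi47 and Ddx58, had estimates of 0.08, -0.09 and -0.21. Those 3 lay below every member, while the list median of 0.46 lay above the estimate of B2m, 0.42. Ifit1 had the lowest estimate, at 27.3 and 44.5 CPM in young and 11.9 and 41.4 CPM in old, overlapping, and Zbp1 the highest, at 4.10 and 4.48 CPM against 10.06 and 27.9 CPM. With the authors' own scaling factors, estimates were higher in old for 6 of 14 loading partners, 3 of 6 immunoproteasome genes, 4 of 15 regulators, 7 of 9 receptors and kinases and 14 of 26 interferon-stimulated genes. Relative to the median of all genes, which that scaling moved, the list medians were 0.08, 0.33, 0.12, 0.44 and 0.43, beside 0.09, 0.39, 0.12, 0.42 and 0.49 with TMM.

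**Figure D4:**
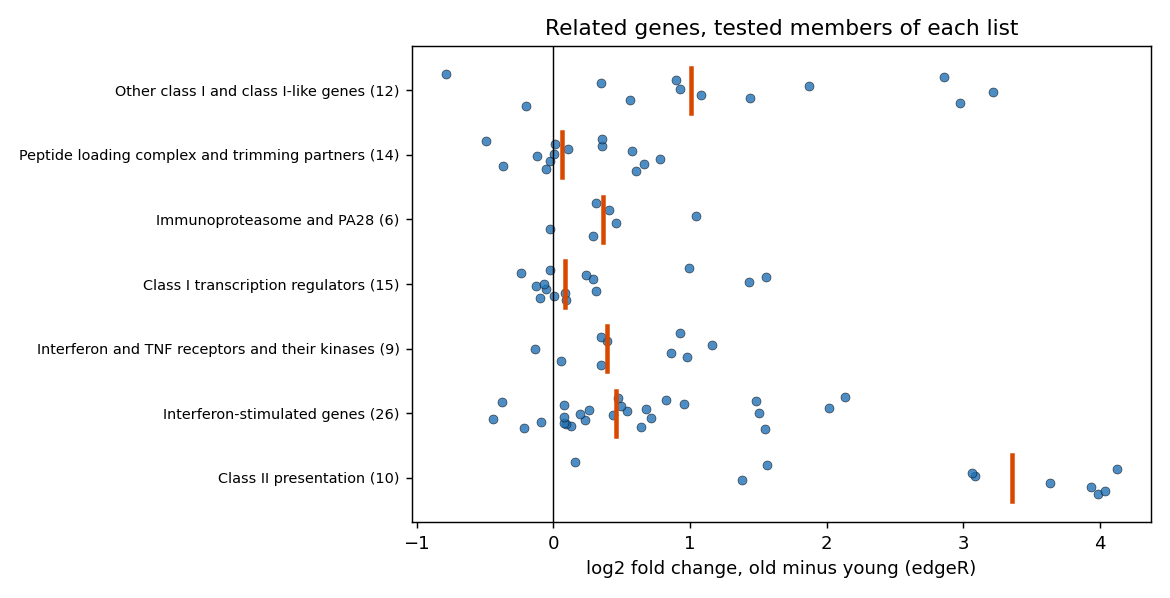
Log2 fold change of old minus young for the tested genes of 7 related lists, with 1 point per gene, an orange bar for the median and the number tested in parentheses. Medians run from 0.06 in the loading partners to 3.36 in class II presentation.

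Class II genes and markers of some other cells were also higher in the old libraries. The 10 class II genes, which present peptides on dendritic cells and B cells, summed to 813 and 1433 CPM in young and 6162 and 19323 CPM in old, with 10 higher estimates, a median of 3.36, 7 DESeq2 calls and no edgeR call (9 at an unadjusted p under 0.05). Cd74, the class II invariant chain, stood at 229 and 522 CPM against 2845 and 9057 CPM. Markers of conventional dendritic cells summed to 214 and 294 CPM in young and 897 and 3194 CPM in old, with 9 of 10 tested markers higher, 8 DESeq2 calls, and Irf8 and Naaa the most abundant. NK and innate lymphoid markers summed to 262 and 293 CPM in young and 427 and 752 CPM in old, with 6 of 7 tested higher and 5 DESeq2 calls. Among the genes behind these DESeq2 calls, Ciita, Zbtb46, Batf3, Ncr1 and Klrk1 reached the FPKM of the filter only in the old libraries. Snx22, Gzmb and Il2rb reached it in young replicate 1 but not in young replicate 2, and Clec9a the other way round. The young libraries alone would thus not have passed any of these genes. Nkg7, the most abundant NK and innate lymphoid marker by mean and not called, was at 220 and 214 CPM against 231 and 158 CPM. Id2 was at 17.5 and 44.4 CPM against 45.6 and 339 CPM.

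Class II genes and dendritic cell markers were 3.14 and 3.56 times as high in old replicate 2 as in old replicate 1. The Q genes were 0.758 times as high in old replicate 2 as in replicate 1, and H2-K1 with H2-D1 0.732 times. H2-T23 was 0.976 times as high, the peptide loading genes 1.14 times and B2m 1.496 times. NK and innate lymphoid markers summed to 1.76 times as much in old replicate 2, with 7 of 12 genes higher there and 5 in old replicate 1. Without Id2, left out after its values were seen, the sums were 382 and 413 CPM, with 6 of 11 genes higher in old replicate 2. Nkg7, Gzmb and Ncr1, the last 2 named after their values were seen, were higher in old replicate 1, at 231 against 158, 37.5 against 20.7 and 8.40 against 7.19 CPM. Klrk1, Klrd1, Il2rb and Klrb1c, also named after their values were seen, were higher in old replicate 2. They stood at 17.2 in old replicate 1 against 71.5 in replicate 2, 8.40 against 37.5, 59.6 against 90.0 and 5.32 against 14.4 CPM. Of the 6 heavy chains, H2-Q6 was higher in old replicate 2 and the other 5 in old replicate 1. The order for H2-Q6 is uncertain, since it depends on the split of fragments with H2-Q8. H2-Q8 was given 13.1 CPM in old replicate 1 and 0.00106 CPM in old replicate 2. The part of such cells in the difference between ages was not tested.

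**Figure D5:**
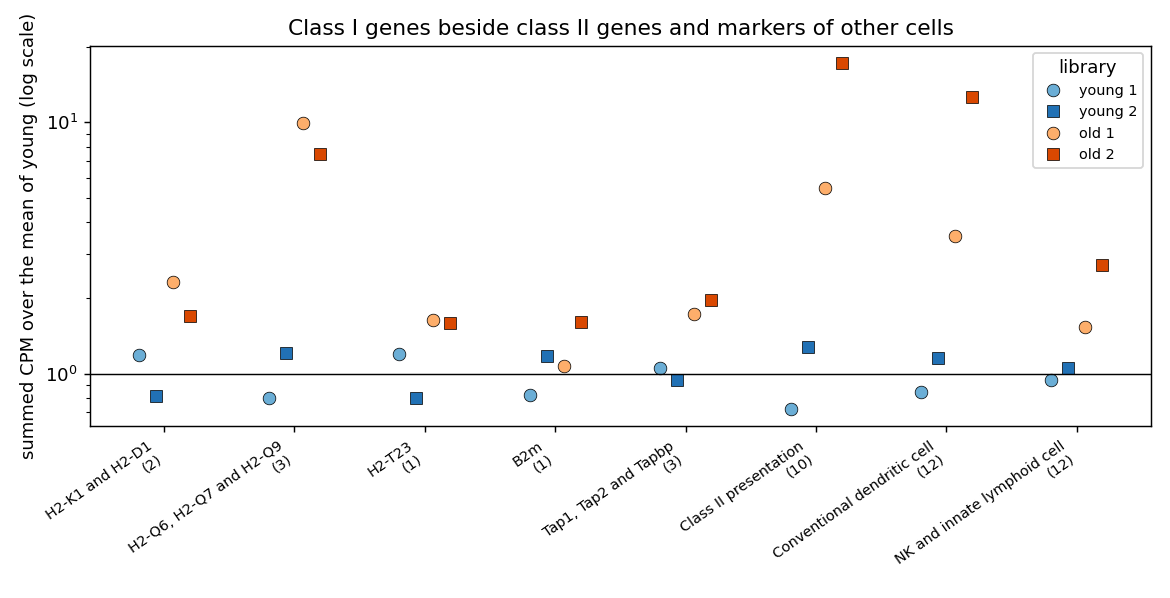
Summed CPM of groups of genes in each library over the mean of the young libraries (log scale), with the number of genes in parentheses, circles for replicate 1 and squares for replicate 2. In old ETP the Q genes reach 9.91 and 7.51 times the young mean, highest in replicate 1, while class II genes reach 5.49 and 17.2 times and dendritic cell markers 3.53 and 12.6 times, highest in replicate 2.

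B cell markers summed to 34.2 and 26.1 CPM in young and 27.5 and 39.9 CPM in old, and plasmacytoid dendritic cell markers to 263 and 401 CPM against 176 and 314 CPM. Macrophage and monocyte markers summed to 229 and 248 CPM in young and 305 and 529 CPM in old, with C1qa at 0 throughout. Markers of more mature T cells summed to 66.5 and 56.5 CPM in young and 74.0 and 112 CPM in old, so that both of these lists were higher in old without overlap. Within the macrophage and monocyte list 4 genes were tested, 3 with higher and 1 with a lower estimate, and neither edgeR nor DESeq2 called any. Estimates ran from -0.03 for Csf1r to 2.42 (SE 1.12) for Ccr2. Ccr2 overlapped between ages, at 12.0 and 51.6 CPM in young and 37.5 and 300 CPM in old. Within the T cell list 6 genes were tested, 3 with higher and 3 with lower estimates, and the median log2 fold change was -0.01. DESeq2 called Cd3e, named for that call, at 3.34 and 2.88 CPM in young and 11.2 and 36.2 CPM in old. Cd3e reached the FPKM of the filter in young replicate 1 but not in young replicate 2. Cd4 was lower in both old libraries, at 11.3 and 10.4 CPM in young and 4.66 and 8.28 CPM in old. In this list edgeR called no gene and had 2 at an unadjusted p under 0.05. Neutrophil markers, mostly Mpo, summed to 1799 and 1102 CPM against 1196 and 449 CPM. Thymic stroma summed to 147 and 179 CPM against 165 and 142 CPM, with Foxn1 at 0, and erythroid markers to 13.4 and 17.5 CPM against 14.1 and 6.52 CPM. The part of these cells was not tested.

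Tested genes outside the members with the most similar profile were sought by root mean square distance of log2 CPM, centred over the 4 libraries. Nearest to H2-Q7 were H2-Q5 (0.185), the granzyme gene Gzmb (0.267) and Cd207, the langerin of some dendritic cells (0.354). Gzmb stood at 3.63 and 4.00 CPM in young and 37.5 and 20.7 CPM in old, and Cd207 at 0.644 and 0.641 CPM against 6.40 and 7.19 CPM. The young levels of Cd207 compare with floors of 0.176 and 0.481 CPM for a count of 0. Gzmb did not reach the FPKM of the filter in young replicate 2. Only genes that passed the filter were searched, and a gene low in young could pass through the old libraries alone. H2-K1 had Sfpi1, which encodes PU.1, at 0.096, then Fmnl3 at 0.099 and the hexokinase gene Hk2 at 0.101. Tap1 had the lysosomal gene Hexa (0.070), Ncf4 of the phagocyte oxidase (0.071) and Vasp (0.080), and H2-T23 had Acot8 (0.036), the chaperone gene Dnajb11 (0.038) and Ptrhd1 (0.041). These distances rest on 4 libraries and describe likeness only.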

How the data were processed

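RNA-seq of 4 libraries of sorted ETP was used, 2 per age, grouped by the labels. The processing notes of the submitters name STAR 2.3.0, Cufflinks 2.1.1, Cuffdiff, HTSeq 0.5.4p3, DESeq 1.12.1 and GRCm38 (mm10). Strand use, the treatment of reads with several alignments and filters are not given in the sources used here. The deposited table, in the layout of Cuffdiff values per replicate, holds estimated counts of fragments per gene from the authors, of which 95.7% to 96.1% per library are whole within 1e-06. It also holds the scaled signal of the authors, these fragments times a library factor (0.723, 1.20, 0.824 and 1.37), and the FPKM of the authors, per transcript length. It names the old libraries 20m, which, read as months, differs from the 72 weeks that the labels give and that are used here. It does not say which of the libraries of an age is which sample, so replicate numbers within an age only name libraries.

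The estimated counts were rounded, normalized by TMM and tested with the quasi-likelihood test of edgeR 4.0.16 (R 4.3.3) with age as the only term, over 10080 genes (FPKM 1 or more in 2 or more libraries), with Benjamini-Hochberg adjustment at 0.05. DESeq2 1.42.0, limma 3.58.1 on log2(FPKM + 1) and log2(FPKM + 0.1), other filters and scalings, a replicate block and leaving out each library were alternatives, and the scaling factors of the authors were added after seeing the data. The libraries of an age differed by a chi-square per gene of 71.2 in young and 83.5 in old, far above sampling noise. The floors for a count of 0 cover counting error only, and amplified reads are not independent molecules. The SE comes from the edgeR fit and includes the spread between libraries.

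Members and gene lists were chosen with earlier results of these data known. Named genes were the members, from each related list the 3 tested genes with the highest mean CPM, those with the highest and lowest fold change and 10 fixed genes, from each marker list the 2 with the highest mean CPM, and the 3 nearest profiles of 4 members. Not every gene that this rule names is reported here. Promoters come from RefSeq (GRCm38.p6) and positions from GENCODE M21. Identity between stretches is from a global alignment.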

Additional observations from a re-analysis of the deposited data

How the results depend on the processing

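Every member had a higher estimate in old, and lay above the median of all tested genes, in every fit run. The count of called genes, 0 of 10080 with edgeR, became 508 (4 of them members: H2-D1, H2-Q6, H2-Q7 and H2-Q9) with no filter on low values, where 17112 genes were tested, and 225 with DESeq2. It ran from 0 to 221 with a library left out, with 221 without old replicate 1 (H2-Q6, H2-Q7 and H2-Q9 among them) and 0 without each of the others. Called genes of the related lists, 0 of 92 tested, became 20, 13 and 0 to 14 under the same alternatives, with 14 without old replicate 1. The cause was not tested.

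The median log2 fold change of the members, 0.97, was 0.66 and 0.68 with limma on log2(FPKM + 1) and log2(FPKM + 0.1) and 0.64 with the scaling factors of the authors. These settings moved the median of all genes to -0.27, -0.33 and -0.32. The peptide loading median, 0.80, was 0.48, 0.50 and 0.48 there. With a library left out they ran from 0.84 to 1.19 and from 0.68 to 0.92. The difference of the Q and T region from the classical members, 2.06, was 1.40 with log2(FPKM + 1), which shrinks low genes, and 1.53 to 2.57 with a library left out. It was 0.85 with the Q genes summed and 0.69 as a ratio of summed FPKM, which both give H2-T23 more weight.

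With the replicate number as a block, 777 genes were called (578 higher, 199 lower in old), 9 members (all but Tap2) and 30 genes of the related lists. The differences of replicate 1 and 2 in young and old correlated at r = 0.734 over 10080 genes, but there are only 2 pairs, and nothing in the labels or the table ties libraries with the same number to each other. With 2 libraries per age and 4839341 fragments in the smallest, the estimates of B2m and Tap2 were within 2 SE of 0.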
